A study of Mus musculus with 12 samples.

Results

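The complement system was followed here through 8 genes in mouse trigeminal tissue: the 3 chains of the starter protein C1q (C1qa, C1qb, C1qc), the cascade components C4b, C3 and Cfb, and the receptors C3ar1 and C5ar1. The genes were taken by their symbols from a deposited table of 57109 protein-coding transcripts of 21981 genes, in which the 8 genes have 18 transcripts, 14 of them above 0 in at least 1 library. RNA was sequenced from the trigeminal ganglia (TG), where the cell bodies of facial sensory neurons lie, and from the part of the brainstem that relays their pain signals, the spinal trigeminal nucleus caudalis (Sp5C). The series is titled as a study of long-lasting inflammatory pain of the temporomandibular joint. There are 12 libraries in 4 groups of 3, named STG and CTG in the ganglion and SSp5C and CSp5C in the nucleus. All 4 groups are C57BL/6 mice, an inbred strain, at 8 weeks of age, and the labels name no transgene or mutant allele. The labels give no meaning for the letters S and C and name no agent or injection, so differences are written as C minus S. They do not say whether libraries of a group come from separate animals or whether tissue was pooled, so each p-value reflects the scatter of these libraries alone, and that scatter may be technical.

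Complement is a chain of plasma and tissue proteins that tags targets for removal. C1q binds a target and starts the classical pathway, which cuts C4 and then C3. Factor B, the product of Cfb, forms the alternative pathway enzyme that cuts more C3, and the small peptides C3a and C5a released along the way act on the receptors C3ar1 and C5ar1 of myeloid and other cells. In the central nervous system microglia are the main source of C1q, and C1q and C3 are known for tagging synapses during development and disease.

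The 3 C1q genes lie side by side on the minus strand of chromosome 4 in GRCm38 (GENCODE M21, looked up by the gene IDs of the table). C1qb spans 136880129 to 136886187, C1qc 136889804 to 136893065 and C1qa 136895917 to 136898803. C4b (34728380 to 34743882), Cfb (34856374 to 34862518) and C3 (57203970 to 57228136) lie on the minus strand of chromosome 17. C3ar1 lies on chromosome 6 (122847138 to 122856161, minus strand) and C5ar1 on chromosome 7 (16246743 to 16259540, minus strand). Cfb overlaps the annotated gene Gm20547 on the same strand, so fragments could be assigned to either. Gm20547 stood at 0 to 0.186 FPKM. Mouse C4b has a near-identical neighbour, C4a, whose symbol was not found in the table. The C4b values may hold fragments of both.

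RefSeq start-site windows (GRCm38.p6, 250 bases before to 50 after the start) were matched for 5 of the 8 genes, C1qb, C1qc, C3, C3ar1 and C5ar1. The windows of C1qb (chr4:136886151-136886450) and C1qc (chr4:136892865-136893164) are shown because these neighbours kept close to each other from library to library, and that of C3 (chr17:57228087-57228386) because C3 did not keep to them in the ganglion. All 3 are given on the minus strand, 5′ to 3′, with matches to the motifs searched in capitals.
C1qb: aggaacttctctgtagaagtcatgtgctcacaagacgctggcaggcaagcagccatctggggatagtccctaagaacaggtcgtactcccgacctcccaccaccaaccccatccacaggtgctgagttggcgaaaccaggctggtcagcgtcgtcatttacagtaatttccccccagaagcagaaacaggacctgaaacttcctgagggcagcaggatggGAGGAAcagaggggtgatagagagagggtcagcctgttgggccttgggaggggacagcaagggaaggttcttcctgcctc
C1qc: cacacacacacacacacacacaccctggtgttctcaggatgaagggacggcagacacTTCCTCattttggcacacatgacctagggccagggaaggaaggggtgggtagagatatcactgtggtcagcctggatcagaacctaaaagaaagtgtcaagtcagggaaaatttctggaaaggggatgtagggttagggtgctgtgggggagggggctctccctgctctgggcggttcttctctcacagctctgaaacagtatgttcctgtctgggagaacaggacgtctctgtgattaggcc
C3: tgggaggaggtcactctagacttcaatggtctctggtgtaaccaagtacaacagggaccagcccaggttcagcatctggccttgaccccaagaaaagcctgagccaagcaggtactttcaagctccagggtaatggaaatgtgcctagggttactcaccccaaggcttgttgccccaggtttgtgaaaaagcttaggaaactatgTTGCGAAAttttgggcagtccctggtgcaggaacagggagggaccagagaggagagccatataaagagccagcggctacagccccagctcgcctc
The letters GAGGAA, part of the sites of the myeloid factor PU.1, were found on either strand once in C1qb, beginning 30 bases before the start, and once in C1qc, on the opposite strand 193 bases before the start. They were found in 28.3% of all 32851 windows of this length. The C/EBP-type letters TTGCNNAA were found once in C3, 45 bases before the start, and in 10.8% of all windows. Motifs of interferon regulatory factor type (3.44% of windows) and of NF-kB type (1.32%) were in none of the 5 windows, and C3ar1 and C5ar1 held none of the 4 motifs. The motifs do not overlap each other in these windows, and a match is a description of letters, not of binding.

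Marker genes stood with the tissue labels. Among the 13081 genes tested between tissues, all 8 sensory neuron markers and all 6 Schwann cell markers were higher in TG, with Avil at 196 ± 23.3 FPKM against 0.506 ± 0.27 and Prx at 218 ± 20.9 against 0.746 ± 0.486 (SD, n = 6 libraries each). All 8 astrocyte markers and 7 of 8 hindbrain neuron markers were lower in TG, with Aqp4 at 10.8 ± 3.39 against 114 ± 21.3 and Slc6a5 at 0.0828 ± 0.0308 against 67.1 ± 4.26. Values are FPKM, fragments scaled to transcript length and library size, so that levels may be compared between genes. No read numbers are in the table, and the depth of each library is unknown. FPKM over protein-coding genes summed to between 285789 and 319060 per library. Several libraries stood apart. The summed FPKM of 11 granulocyte and marrow genes was 881 in CTG replicate 1 and 294 in CTG replicate 3, against 4.09 to 33.9 in the other TG libraries. That of 7 pituitary genes was 2860 in STG replicate 1 against 2.57 to 51.6. That of 12 microglial genes was 160 in CSp5C replicate 1 and 75.6 in CSp5C replicate 3. The other Sp5C libraries stood at 96.5 to 114. The 10 fibroblast and meningeal genes summed to 127 in SSp5C replicate 2, 117 in CSp5C replicate 1 and 100 in CSp5C replicate 2. They summed to 38.7 to 46.6 in the other Sp5C libraries.

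**Figure D1:**
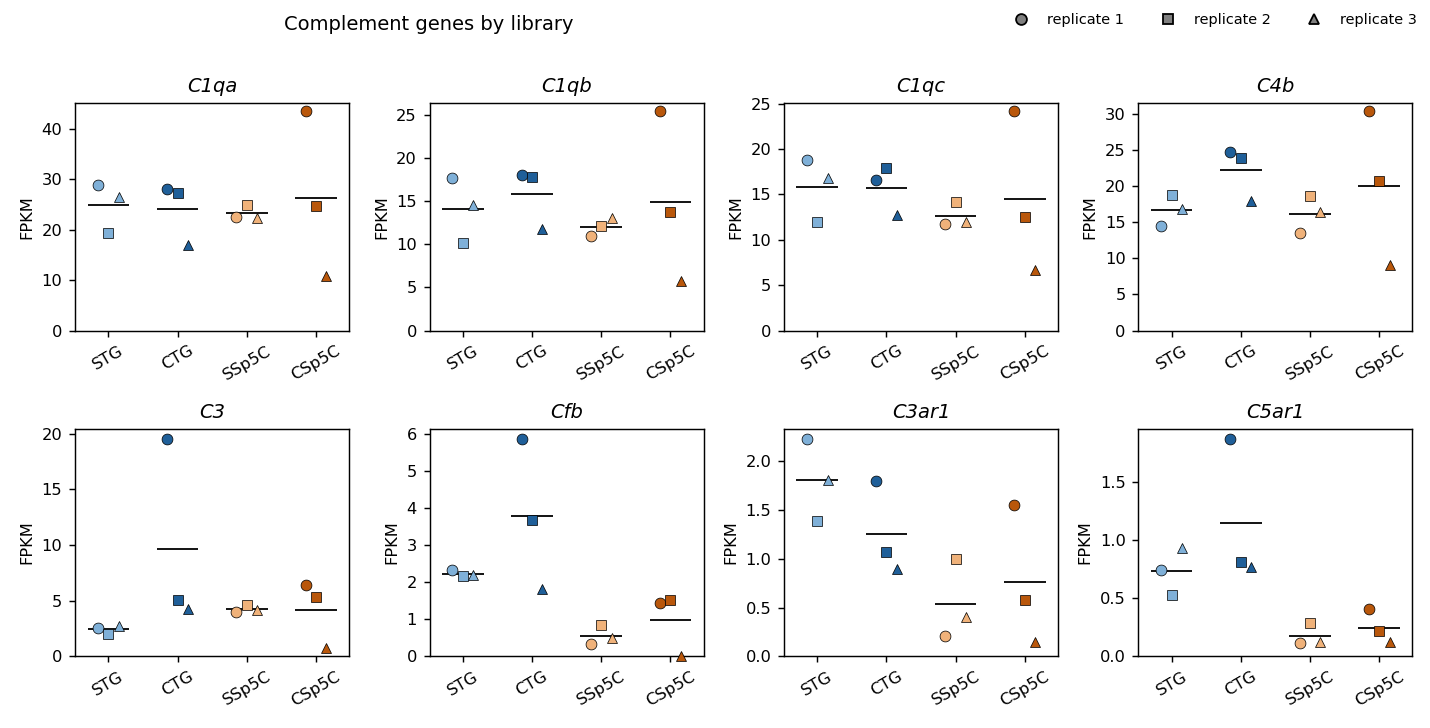
FPKM (linear axis from 0) of each of the 8 complement genes in the 12 libraries, with a bar at the mean of each group of 3. C1qa, C1qb, C1qc and C4b lie in one range in both tissues, C3 is highest in CTG replicate 1 at 19.5, and Cfb and C5ar1 lie higher in the ganglion.

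The chains of C1q were the most abundant of these transcripts beside C4b. C1qa, the A chain, ranked 2495 of 21981 genes by mean level in TG and 2405 in Sp5C. C1qa stood at 28.8, 19.3 and 26.4 FPKM in STG, 28.1, 27.3 and 17.0 in CTG, 22.5, 24.9 and 22.3 in SSp5C, and 43.5, 24.7 and 10.9 in CSp5C. The CSp5C group held both the highest and the lowest of all 12 values, and all 4 groups overlapped. C1qb, the B chain, stood at 17.7, 10.1 and 14.5 FPKM in STG, 18.0, 17.8 and 11.8 in CTG, 10.9, 12.1 and 13 in SSp5C, and 25.4, 13.7 and 5.69 in CSp5C. C1qc, the C chain, stood at 18.8, 11.9 and 16.8 in STG, 16.6, 17.9 and 12.7 in CTG, 11.7, 14.2 and 12 in SSp5C, and 24.2, 12.5 and 6.64 in CSp5C. For each chain the extremes of the 12 libraries were again CSp5C replicate 1 and CSp5C replicate 3. The spread within CSp5C, a highest over lowest level of 3.99 for C1qa, 4.46 for C1qb and 3.64 for C1qc, compares with 1.11, 1.18 and 1.22 within SSp5C. Of 12685 genes measured in CSp5C, 1.35% had a higher coefficient of variation than C1qa, 1.13% than C1qb and 1.36% than C1qc. The coefficient of C1qa there was 62.0%, whereas the median gene had 7.89%.

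Each C1q molecule takes up its A, B and C chains in equal number, and the ratios of the transcripts stayed within narrow bounds while the levels moved. C1qa was above C1qb and above C1qc in 12 of 12 libraries, whereas C1qb was above C1qc in 4 of 12. The ratio of C1qa to C1qb lay between 1.44 and 2.06, and that of C1qb to C1qc between 0.845 and 1.10. The ratio of C1qa to C1qc was 1.55 ± 0.122 in TG, from 1.34 to 1.70, and 1.83 ± 0.122 in Sp5C, from 1.64 to 1.97 (SD, n = 6 libraries each). The ratio was lower in TG (difference of −0.24 in the log2 ratio, exact permutation test, two-sided, p = 0.00433, adjusted p = 0.013 over 3 ratios). For C1qa over C1qb (−0.19, exact p = 0.0498, adjusted p = 0.0747) and C1qb over C1qc (−0.05, exact p = 0.593, adjusted p = 0.593) the tissues did not pass. These 3 tests were added after the values were seen.

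Many microglial markers had their extremes in the same nucleus libraries as C1q, and so did macrophage markers. Of 12 microglial markers, 10 were highest of the 6 Sp5C libraries in CSp5C replicate 1 and 8 were lowest in CSp5C replicate 3. Of 10 macrophage markers, 9 were highest in the former and 5 lowest in the latter. Of 6 endothelial markers, 4 were highest in the former and 2 lowest in the latter. Of the 8 complement genes, 7 were highest in the former and 7 lowest in the latter. Of the 5 with a mean of at least 1 FPKM in Sp5C, 5 were highest in the former and 5 lowest in the latter. Of all 12690 genes tested there, 19.1% were highest in the former and 20% lowest in the latter. Tyrobp, the adaptor of the microglial receptor Trem2, named after its values were seen, stood at 17.8, 11.7 and 4.98 FPKM in CSp5C and 10.0, 10.6 and 11.7 in SSp5C. Among the defining homeostatic markers, none of which was at 0, Tmem119 stood at 8.48, 5.99 and 3.6 in CSp5C and 6.21, 5.75 and 6.19 in SSp5C, the same extremes as C1q. Sall1, at 8.08, 6.09 and 5.83 against 7.2, 7.23 and 7.34, had them too. P2ry12 did not, at 9.75, 7.6 and 6.91 against 4.64, 11.2 and 10.2. Nor did Siglech, at 2.14, 2.55 and 3.0 against 1.89, 1.41 and 3.16. In bulk tissue, fewer cells of a type and less RNA per cell cannot be told apart, and the part of cell number in the C1q spread was not tested.

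**Figure D2:**
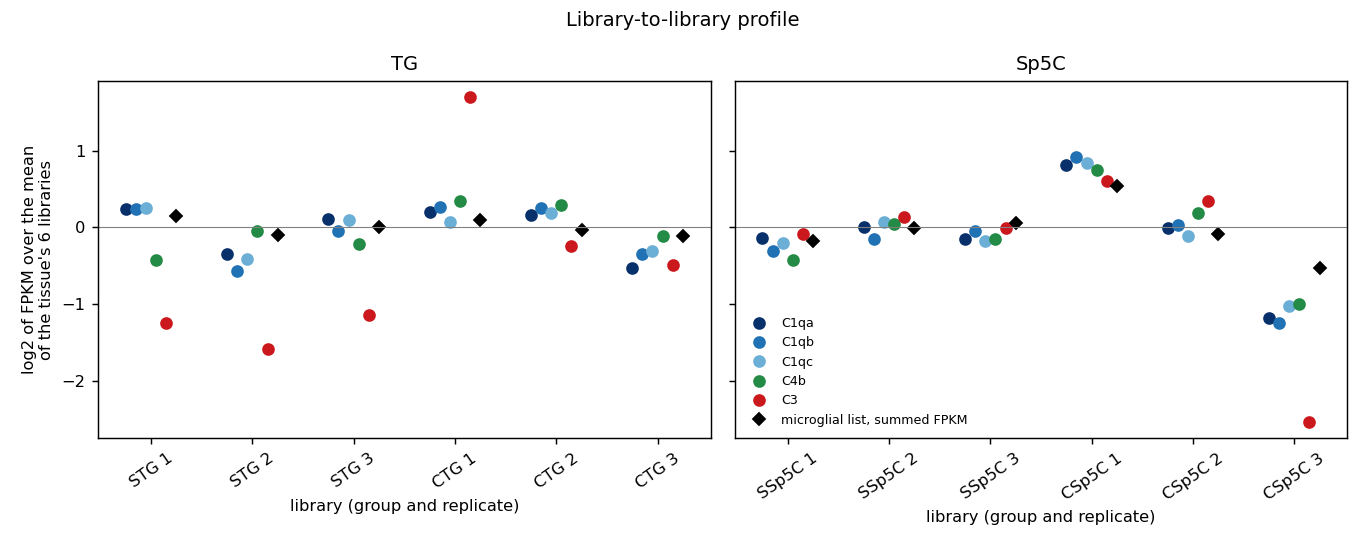
Level of C1qa, C1qb, C1qc, C4b and C3 and the summed FPKM of 12 microglial markers in each library, as log2 of the value over the mean of the 6 libraries of that tissue, TG left and Sp5C right. The C1q chains and C4b are highest in CSp5C replicate 1 and lowest in CSp5C replicate 3, and C3 stands apart from them in the ganglion.

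C4b encodes the fourth component, which is cut after C1q binds and deposits on the target. It stood at 14.5, 18.8 and 16.8 FPKM in STG, 24.8, 23.9 and 18.0 in CTG, 13.5, 18.7 and 16.4 in SSp5C, and 30.5, 20.7 and 9.11 in CSp5C. In the ganglion CTG replicates 1 and 2 lay above all STG libraries, while CTG replicate 3 lay below STG replicate 2. In the nucleus C4b repeated the C1q order, with the highest value in CSp5C replicate 1 and the lowest in CSp5C replicate 3. The ratio of C4b to C1qa was 0.743 ± 0.0893 in Sp5C and 0.822 ± 0.211 in TG (SD, n = 6 libraries each), with its lowest value, 0.502, in STG replicate 1 and its highest, 1.06, in CTG replicate 3.

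C3, the component on which all pathways meet, was less abundant than C4b in 12 of 12 libraries and was the member with the widest distance between the letters in the ganglion. It stood at 2.54, 2.0 and 2.71 FPKM in STG and at 19.5, 5.07 and 4.28 in CTG. All 3 CTG libraries lay above all STG libraries, at 8.08, 2.1 and 1.77 times the STG mean. CTG replicate 1 accounted for most of the distance between the group means. In the nucleus C3 stood at 3.95, 4.61 and 4.16 in SSp5C and 6.4, 5.32 and 0.722 in CSp5C, so that CSp5C replicates 1 and 2 lay above and replicate 3 below every SSp5C library. The ratio of C3 to C4b, between 0.106 and 0.293 in 10 of the libraries, was 0.787 in CTG replicate 1 and 0.0793 in CSp5C replicate 3. C3 is known to be made by reactive astrocytes and fibroblasts and to be carried in neutrophils, and CTG replicate 1 was also the library richest in granulocyte genes. There Mpo, the peroxidase of neutrophil granules, stood at 24.7 FPKM, Elane at 17.8, Prtn3 at 14.5 and Ctsg at 5.70, whereas in STG none of these 4 exceeded 0.508. In CTG replicate 2 they stood at 1.28, 0.49, 0.838 and 0.411, and C3 at 5.07 lay above STG there too. In CTG replicate 3 they stood at 4.43, 3.81, 2.73 and 0.735. The whole list of 11 genes summed to 12.8 FPKM in CTG replicate 2, within the STG range of 4.09 to 33.9. Over all 11 genes of the list, 10 entered the ganglion test, where the CTG mean was the higher for 10 and 0 were called. The part of these cells in the C3 values was not tested.

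**Figure D3:**
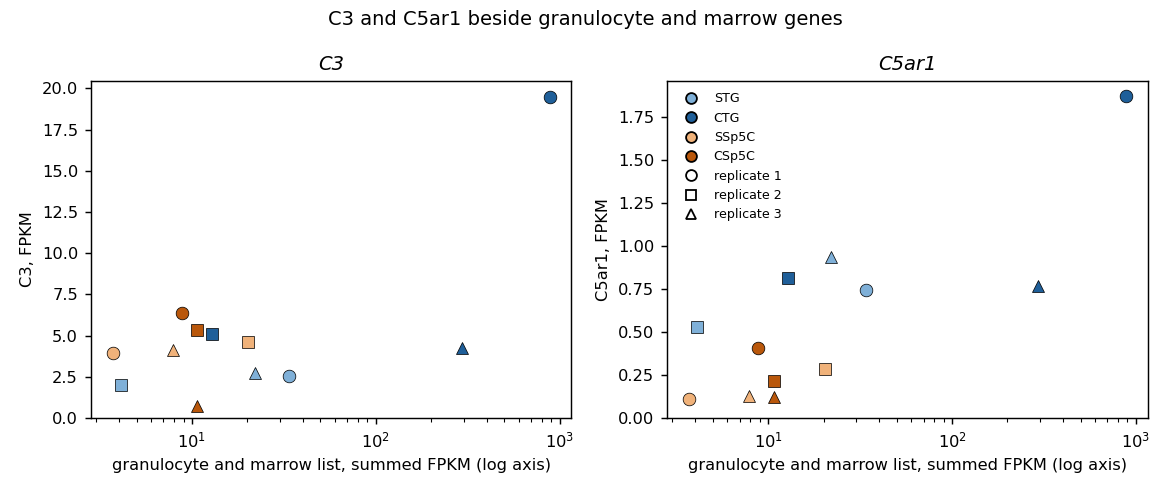
C3 (left) and C5ar1 (right) in FPKM against the summed FPKM of 11 granulocyte and marrow genes (log axis) in the 12 libraries, coloured by group with a symbol for each replicate. CTG replicate 1 is highest on both axes, whereas CTG replicate 3, at a sum of 294, has a C3 level of 4.28 and a C5ar1 level of 0.768.

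Cfb, the serine protease of the alternative pathway, was a transcript of the ganglion more than of the nucleus. Its sum over 7 transcripts was 2.33, 2.16 and 2.19 FPKM in STG, 5.86, 3.68 and 1.83 in CTG, 0.33, 0.846 and 0.498 in SSp5C, and 1.43, 1.52 and 0.02 in CSp5C. All 6 ganglion libraries lay above all 6 of the nucleus, as for 27.6% of the genes tested between tissues. The CTG libraries reached both above and below the tight STG range, and CSp5C replicate 3 again held the lowest value. The transcript ENSMUST00000025229 carried 79.6% of the Cfb level in TG, where it was above 0 in 6 of 6 libraries, and 38% in Sp5C, where it was above 0 in 2 of 6. In SSp5C it was listed at 0 in all 3 libraries. ENSMUST00000176203 was above 0 in SSp5C replicate 2 alone, at 0.766 FPKM, which was most of the Cfb value of that library. Such low values split over 7 transcripts are uncertain. Of the other members, C3 rested wholly on 1 of its 3 transcripts, ENSMUST00000024988, and C5ar1 in TG to 98.3% on 1 of 3, ENSMUST00000168818. C1qa, C1qb, C1qc, C4b and C3ar1 have 1 transcript each in the table.

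The anaphylatoxin receptors were the least abundant members. C3ar1, the receptor of C3a on myeloid cells, stood at 2.23, 1.39 and 1.81 FPKM in STG, 1.80, 1.07 and 0.898 in CTG, 0.207, 0.996 and 0.401 in SSp5C, and 1.55, 0.578 and 0.143 in CSp5C. Of the ganglion libraries, STG replicates 1 and 3 and CTG replicate 1 lay above all of the nucleus, while SSp5C replicate 2 and CSp5C replicate 1 reached into the ganglion range. C5ar1, the receptor of C5a on neutrophils and macrophages, stood at 0.742, 0.529 and 0.935 in STG, 1.87, 0.813 and 0.768 in CTG, 0.112, 0.283 and 0.127 in SSp5C, and 0.405, 0.215 and 0.121 in CSp5C. All 6 ganglion libraries lay above all 6 nucleus libraries, as for 27.6% of the genes tested between tissues, which leave out C5ar1. The highest C5ar1 value fell in CTG replicate 1, as for C3. C3ar1 was above C5ar1 in 11 of 12 libraries, the exception being CTG replicate 1. Of the 8 members, 5 had their highest TG value in CTG replicate 1. Of the 7 members tested in the ganglion, 4 did so, as did 23.1% of all genes tested there.

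Between the letters in the ganglion, none of the members passed. Of the 8 genes, 7 had a mean of at least 1 FPKM over the 6 libraries and entered limma's test of 12906 genes on log2(FPKM + 1), and 0 of 7 passed at an adjusted p of 0.05, where 0.00775% of all genes were called. At an unadjusted p under 0.05 there were 2, C3 and C4b, where 4.7% of all genes reached this. C3 had the highest difference, 1.35 (95% interval 0.09 to 2.61, limma adjusted p = 0.96). It was the sole member whose CTG and STG libraries did not overlap, with CTG higher, as was the case for 4.47% of all genes. C4b differed by 0.39 (0.05 to 0.73, limma adjusted p = 0.96) and Cfb by 0.48 (−0.25 to 1.20, adjusted p = 0.96). C3ar1 had the lowest difference, −0.33 (−0.77 to 0.12, limma adjusted p = 0.96). The C1q chains had differences of −0.06 for C1qa (−0.61 to 0.50), 0.17 for C1qb (−0.41 to 0.75) and 0.00 for C1qc (−0.45 to 0.45), intervals that leave room for changes in either direction. Without CTG replicate 1 the difference of C3 was 0.73 (limma adjusted p = 0.363) and that of Cfb 0.17 (adjusted p = 0.807). The median difference of the 7 was 0.17, against −0.01 over all genes tested. C5ar1 lay under the filter, and its CTG and STG ranges overlapped.

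In the nucleus the spread of the CSp5C libraries set the width of every interval. Of the 8 genes, 5 entered the test of 12690 genes, and 0 passed, where 0.0315% of all genes were called. At an unadjusted p under 0.05 there were 0 of the 5, where 5.02% of all genes reached this. C3 differed by −0.28 (95% interval −1.64 to 1.09, limma adjusted p = 0.962), C4b by 0.16 (−0.86 to 1.18, adjusted p = 0.971), C1qa by −0.02 (−1.15 to 1.11), C1qb by 0.09 (−1.09 to 1.26) and C1qc by 0.02 (−1.01 to 1.05). Without CSp5C replicate 3 the differences were 0.48 for C1qa, 0.61 for C1qb, 0.44 for C1qc, 0.61 for C4b and 0.39 for C3 (limma adjusted p from 0.817 to 0.919). Without CSp5C replicate 1 they were −0.47, −0.39, −0.42, −0.21 and −0.67 (adjusted p from 0.823 to 0.934). The median difference of the 5 was 0.02, against 0.00 over all genes tested. Cfb, C3ar1 and C5ar1 lay under the filter in the nucleus.

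The C minus S differences were also set against each other between the tissues, in a fit of all 12 libraries. The ganglion difference minus the nucleus difference was 1.63 for C3 (95% interval −0.21 to 3.47, limma adjusted p = 0.898). For the other 6 members tested it lay between −0.48 (C3ar1) and 0.23 (C4b), with limma adjusted p of 0.934 to 0.997. In this comparison 0 of 7 members and 0% of 13081 genes passed, with 5.41% of all genes at an unadjusted p under 0.05 and 0 of the members. C3 was therefore not shown to differ in its C minus S change between tissues.

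**Figure D4:**
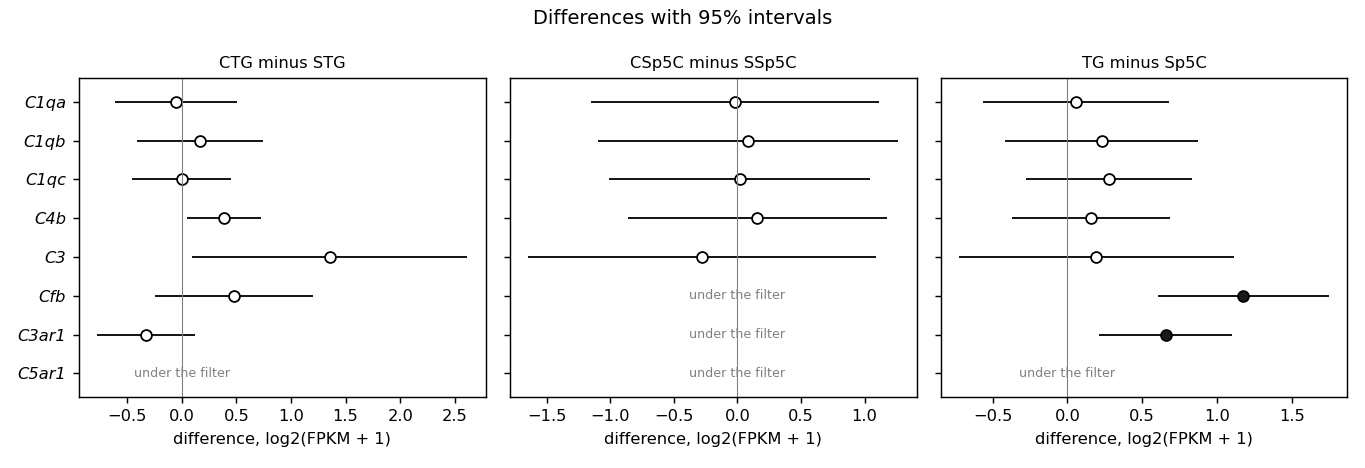
Differences of the members on the log2(FPKM + 1) scale with 95% intervals from limma, C minus S in each tissue and TG minus Sp5C. Filled points passed at an adjusted p of 0.05. Only Cfb and C3ar1 in the tissue contrast are filled, and the nucleus intervals of the C1q chains and C4b reach from −0.86 or lower to 1.05 or higher.

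Cfb was higher in TG, at 3.01 ± 1.54 FPKM against 0.773 ± 0.604 (SD, n = 6 libraries each, log2 difference 1.18, 95% interval 0.60 to 1.75, limma adjusted p = 0.00179). C3ar1 was higher in TG too, at 1.53 ± 0.504 against 0.647 ± 0.54 (0.66, 0.21 to 1.10, limma adjusted p = 0.0126). C5ar1, under the filter at a mean of 0.576 FPKM, was higher in TG at 0.942 ± 0.472 against 0.211 ± 0.116 in an exact permutation test, two-sided (difference 0.66, p = 0.00216, the smallest p that 6 against 6 allows). The chains of C1q, C4b and C3 did not pass. Their differences were 0.06 for C1qa (−0.56 to 0.68), 0.23 for C1qb (−0.42 to 0.87), 0.28 for C1qc (−0.28 to 0.83), 0.16 for C4b (−0.37 to 0.69) and 0.19 for C3 (−0.73 to 1.11), with limma adjusted p of 0.339 to 0.862. In all, 2 of the 7 members tested passed, both higher in TG, where 71.2% of the 13081 genes passed in either direction and 36.2% as higher. The median difference of the 7 was 0.23, against 0.01 over all genes tested. Of the 7, the libraries of Cfb alone did not overlap, and those of C5ar1, outside the 7, did not overlap either. This was the case, with TG higher, for 27.6% of all genes tested. The permutation p of C5ar1 follows from this separation and is not adjusted. Without STG replicate 1 the mean of C3ar1 lay under the filter and 1 member was called. Without CSp5C replicate 1 there were 3, C1qc passing as well (0.50, limma adjusted p = 0.0256).

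Of 12 microglial markers, 6 were lower in TG, 1 was higher and 5 did not pass, where 71.2% of all genes passed in either direction. The higher one was Fcrls (2.81 ± 0.665 FPKM against 1.21 ± 0.807), named after its values were seen. Among the lower were Sall1 (0.504 ± 0.213 FPKM against 6.96 ± 0.846), Tmem119 (1.56 ± 0.639 against 6.04 ± 1.55), P2ry12 (2.70 ± 0.784 against 8.38 ± 2.44) and Siglech (0.449 ± 0.132 against 2.36 ± 0.672) (SD, n = 6 libraries each). Of 10 macrophage markers, 7 were tested and 6 were higher in TG, as were 36.2% of all genes, among them Mrc1 (8.50 ± 0.775 against 1.93 ± 1.36) and F13a1 (4.49 ± 1.24 against 1.35 ± 0.803). The summed FPKM of the macrophage list ranged from 26 to 43.9 in TG and from 6.51 to 21.6 in Sp5C, and that of the microglial list from 83.2 to 100 and from 75.6 to 160. Cd163 was at 1.49 FPKM in STG replicate 3 and at 0.00845 to 0.661 elsewhere, and Lyve1 between 0.0543 and 1.36. Of 10 fibroblast and meningeal markers 6 were higher in TG, 1 was lower and the others did not pass. Col1a1 stood at 147 ± 54.8 against 7.32 ± 3.63. The part of these cells in the levels of Cfb, C3ar1 and C5ar1 was not tested. Fabp7 of satellite glia was higher in TG (181 ± 29.8 against 29.4 ± 9.47), and Cldn5 of endothelium lower (14.7 ± 1.79 against 21.6 ± 3.51). Hbb-bs of red cells did not pass (202 ± 160 against 161 ± 60.4), and Alb of liver lay between 0 and 0.0525.

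The rest of the complement pathway, 50 listed genes of which 49 were in the table, was compared between the tissues in the same fit. Between tissues 23 were tested, of which 10 were higher and 6 lower in TG, shares near those over all genes tested, of which 71.2% passed in either direction and 36.2% as higher. The median difference was 0.45. The C1q partner proteases C1s1 (5.87 ± 1.59 FPKM against 0.622 ± 0.407, log2 difference 2.09) and C1ra (3.55 ± 1.26 against 0.692 ± 0.397, 1.42) were higher in TG, although C1q itself did not pass, and so was Serping1, the inhibitor of those proteases (41.9 ± 5.89 against 6.85 ± 4.37, 2.65). Among the regulators on the cell surface, 6 of 9 tested were higher in TG. Cd55, which speeds the decay of C3-cutting enzymes, stood at 84.7 ± 8.4 against 4.57 ± 1.13 (3.96) and its paralog Cd55b at 3.23 ± 0.576 against 0.145 ± 0.0525 (1.88). Cd59a, which blocks the membrane attack complex, stood at 31.6 ± 3.53 against 8.84 ± 1.2 (1.73), and Cr1l, the rodent C3 regulator Crry, at 15.1 ± 1.73 against 10.8 ± 0.663 (0.45). Properdin, the stabilizer of the alternative enzyme encoded by Cfp, was higher as well (2.64 ± 0.705 against 1.90 ± 0.46, 0.32). The limma adjusted p of the genes named as higher was at most 0.028 and n = 6 libraries per tissue.

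Lower in TG were the fluid-phase regulators Vtn (9.12 ± 2.93 FPKM against 30.8 ± 9.18, log2 difference −1.65) and Clu (114 ± 14.8 against 214 ± 16.8, −0.91), both of which block the terminal complex. Also lower were the lectin pathway protease gene Masp1 (2.59 ± 0.194 against 9.38 ± 1.23, −1.53), Csmd3 (2.19 ± 0.322 against 7.40 ± 0.661, −1.40), Susd4 (17.2 ± 1.36 against 27.5 ± 1.56, −0.64) and C1qbp (32.9 ± 0.64 against 35.8 ± 2.37, −0.12), with limma adjusted p of at most 0.0351. The chains of complement receptor 3 did not pass, Itgam at 3.09 ± 2.23 against 4.34 ± 1.56 (limma adjusted p = 0.148) and Itgb2 at 2.90 ± 1.93 against 1.64 ± 0.641 (limma adjusted p = 0.0968). The 7 genes of the terminal complex, C5 (Hc) to C9, were under the filter, with a summed level of 0.63 to 1.04 FPKM in TG and 0.364 to 0.859 in Sp5C.

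Between the letters, 0 of 24 other complement genes passed in TG and 0 of 20 in Sp5C, with medians of 0.03 and 0.08. At an unadjusted p under 0.05 there were none of the 24 and 4 of the 20, Colec12, Cfp, Cd55 and Cd59a, which were named after their values were seen (limma adjusted p of 0.904 to 0.931). Over all genes these shares were 4.7% in TG and 5.02% in Sp5C. Itgam was highest in CTG replicate 1, as C3 was, at 7.51 FPKM against 1.66 to 3.11 in the other TG libraries, and Itgb2 did so at 6.81 against 1.66 to 2.33. C1ra stood at 5.81, 4.19 and 2.68 in CTG and 3.08, 2.49 and 3.07 in STG, the order in which Cfb stood in CTG.

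**Figure D5:**
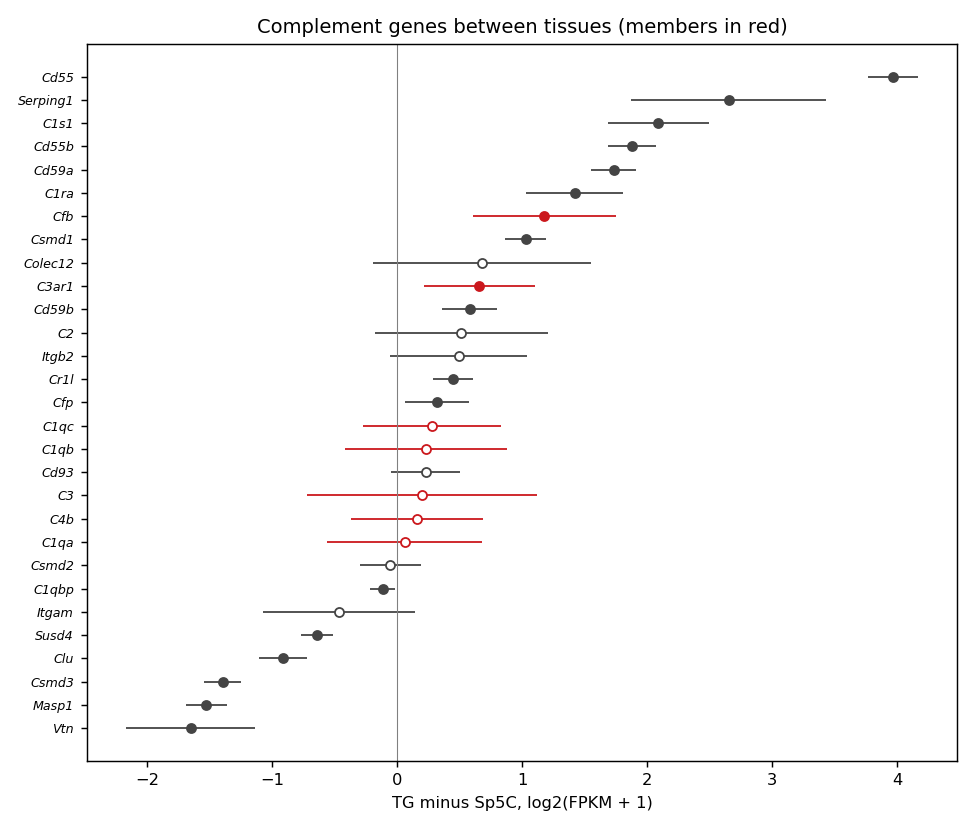
TG minus Sp5C differences on the log2(FPKM + 1) scale with 95% intervals for the complement genes reported, the 7 members in red, sorted by size. Filled points passed at an adjusted p of 0.05. Cd55 and Serping1 lead the genes higher in TG, Vtn and Masp1 those lower, and the C1q chains, C4b and C3 lie around 0.

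The genes whose level ran closest to each member were sought over the 12 libraries by the root mean square distance between log2(FPKM + 1) profiles, each centred on its own mean. The nearest of 13081 genes to C1qa were C1qb (0.145), C1qc (0.147) and Aif1 (0.158), a gene of microglia and macrophages, whereas the median gene lay at 0.501. To C1qb they were C1qc (0.128), C1qa (0.145) and Aif1 (0.198), and to C1qc they were C1qb (0.128), C1qa (0.147) and Unc93b1 (0.16), a chaperone of endosomal Toll-like receptors. To C4b the nearest were Icam1 (0.216), an adhesion molecule, A2m (0.23) and Tmem159 (0.25). For C3 the nearest stood farther off, Cd14 (0.465), the monocyte coreceptor for lipopolysaccharide, Ncf1 (0.469), a subunit of the phagocyte oxidase, and Saa3 (0.471), an acute phase protein, with a median gene at 0.857. To Cfb they were C1ra (0.214), Ptprc (0.223), the leukocyte antigen CD45, and Srgn (0.267). To C3ar1 they were Mob3b (0.178), Pik3ap1 (0.184) and Tcn2 (0.193). Within Sp5C alone the nearest of 12690 genes to C3 was the astrocyte marker Gfap (0.216), and C1qa was the 10th (0.263, median gene 0.691). Within TG alone the nearest of 12906 to C3 was Mmp13 (0.131), and C1qa ranked 2391 (0.877, median gene 0.928). Gfap and Mmp13 were named after their values were seen. The distance is a description, and the libraries share tissue, dissection and cell mixture.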

How the data were processed

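The deposited FPKM values were made by the authors for every transcript and library, and the submitters' processing notes name HISAT2, StringTie 1.3.1 and Cuffdiff 2.1.1, with no role or order. Build and annotation behind the table: not given in the sources used here. Per the labels' protocols, ribosomal RNA was removed and libraries were made with a directional kit.

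Gene levels are sums over transcripts. Differences were tested on log2(FPKM + 1) with limma 3.58.1 (R 4.3.3, trend and robust moderation, tested on simulated data), two-sided, over genes with a mean of at least 1 FPKM, with Benjamini-Hochberg adjustment over all genes tested. The scale understates the change of low genes. C against S used the 6 libraries of a tissue, the tissue contrast and the difference of effects all 12. C5ar1, under the filter, had an exact permutation test (scipy 1.17.1). Alternatives were other pseudocounts, filters, scalings and moderation, the top transcript, a replicate block, a fit of all libraries and each library left out. Depth is unknown, so no counting interval is given. The members and lists were chosen with earlier results of these data known. The rule for naming took all members, the 3 nearest genes of each, other complement genes called between letters or among the 3 largest called differences of a role list in each direction, and a fixed set of complement genes and markers. Long non-coding tables were not used here. Genes the rule does not name stand in the counts alone, and 1 gene that it names is not reported here.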

Additional observations from a re-analysis of the deposited data

Results flagged for a closer look

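C3 in CTG replicate 1, at 19.5 FPKM, and C5ar1 in the same library, at 1.87 FPKM, stood far above the other 5 TG libraries. The gap to the next library was 0.825 of the whole range for C3 and 0.696 for C5ar1, both above Dixon's 95% critical value for 6 libraries. For values that follow a normal distribution, chance alone gives such a gap in about 1 in 20 groups. All 8 members were looked at in both tissues, on the FPKM scale. The share of all genes with such a gap was not counted. CTG replicate 1 had the highest granulocyte and marrow sum, at 881 FPKM, and the part of this in either value was not tested.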

How the results depend on the processing

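Across the alternatives, 0 members were called between the letters in either tissue or in the difference of effects. In the tissue contrast Cfb was called under every alternative that tested it (difference 0.96 to 2.15), as was C3ar1 (0.52 to 1.39). The count of members called there was 0 with a mean FPKM of at least 5, which tested neither gene, 3 with no filter, and 1 to 3 with 1 library left out. C5ar1 differed by 1.73 with a pseudocount of 0.1.

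Counts over all genes moved more. Between CTG and STG 1 gene was called, 0 with a mean FPKM of at least 5, in the fit of all 12 libraries or with the replicate block, 2 after quantile normalization, 6 with the top transcript, and 0 to 7 with 1 library left out. Between CSp5C and SSp5C 4 were called, 0 with a mean FPKM of at least 5, in the fit of all 12 libraries or with the replicate block, 2 with the top transcript, and 0 to 8 with 1 library left out. For the difference of effects 0 were called, and 0 to 2 with 1 library left out.

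Signs of differences that had not passed also turned. C1qc between CTG and STG was 0.001 with a pseudocount of 0.1, 0.000 with 0.5 and 0.007 after quantile normalization. With 1 library left out, CTG minus STG ran from −0.219 to 0.168 for C1qa, −0.040 to 0.356 for C1qb and −0.180 to 0.136 for C1qc. CSp5C minus SSp5C ran from −0.469 to 0.482 for C1qa, −0.385 to 0.605 for C1qb, −0.419 to 0.441 for C1qc, −0.666 to 0.386 for C3 and −0.206 to 0.614 for C4b. TG minus Sp5C ran from −0.193 to 0.282 for C1qa, −0.032 to 0.464 for C1qb, −0.137 to 0.388 for C3 and −0.068 to 0.342 for C4b, and C1qc passed in 1 such fit (0.495, adjusted p = 0.0256). The difference of effects ran from −0.538 to 0.413 for C1qa, −0.436 to 0.554 for C1qb, −0.441 to 0.419 for C1qc, −0.228 to 0.592 for C4b and −0.200 to 0.559 for Cfb. The cause was not tested.

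Same-numbered libraries deviated together between CTG and CSp5C (correlations of 0.228 to 0.383 over genes) but not between STG and SSp5C (−0.197 to −0.023), nor in each pair of the letters, so the numbers were not taken as pairs, and the replicate block changed no member's call. Of the 21 nearest genes over all libraries, 1 was again among the 21 nearest over TG libraries alone and 4 among the 15 over Sp5C. Depth is unknown, and members near 1 FPKM are the least certain.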

Other observations

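Most members of complement had their extremes at the same replicate numbers in CTG and CSp5C, C1qc and Cfb differing in the highest. The lowest CTG library and the lowest CSp5C library had the same number for 8 of 8 members, and the highest for 6 of 8. Over all 13081 genes tested, which leave out C5ar1, the shares were 43.6% and 44.5%. In STG and SSp5C the counts were 1 of 8 and 1 of 8, with 27.9% and 28.7% over all genes. The labels do not say that libraries of the same number come from the same animal, the members are not independent of each other, and no test was made.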
